A study of Mus musculus with 6 samples.

Results

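The PPAR, ERR and PGC-1 regulators, 10 genes that set how the heart muscle burns fuel, comprise the coactivators Ppargc1a and Ppargc1b, the peroxisome proliferator-activated receptors Ppara, Ppard and Pparg, their partner Rxra, the estrogen-related receptors Esrra, Esrrb and Esrrg, and the mitochondrial factor Tfam. They were taken by name as members of the known PPAR, ERR and PGC-1 circuit. Of the 10 genes, 8 had a transcript cluster of their own on the array, among 30738 genes that did. A transcript cluster is the set of probes that the array assigns to 1 gene or transcript region. The clusters of the other 2 carried a further gene symbol, the long noncoding RNA 1810013A23Rik for Ppard and the microRNA gene Mir6990 for Esrra, so their values cannot be assigned to 1 gene and are kept out of the counts.

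Hearts of AAV9-Rbm24 injected mice (n = 3) were compared with hearts of AAV9-GFP injected mice (n = 3). All 6 mice were wild-type C57/Bl6 males that received 4000000000000 viral genomes intraperitoneally as pups of 1 week, and the hearts were taken 2 weeks after that, at 3 weeks of age. The AAV9-Rbm24 vector carried a flag-tagged mouse Rbm24 open reading frame behind a CMV promoter, and Rbm24 is an RNA-binding protein and splicing factor. AAV9 mainly infects cardiomyocytes, not every cell takes up the vector, and the CMV promoter is not restricted to 1 cell type. Total RNA of the left ventricle, a mixture of all its cell types, was hybridised to 1 Mouse Transcriptome Array 1.0 per heart. The values are log2 signals, so that a difference of 1 means a doubling of the signal.

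PPARs are nuclear receptors that are switched on by fatty acids and bind DNA together with an RXR partner. In the heart, Ppara and Ppard drive genes of fatty acid uptake and oxidation, whereas Pparg is best known from fat cells. The ERRs are related receptors without a known natural hormone and drive genes of the citric acid cycle and the respiratory chain. PGC-1 coactivators (Ppargc1a and Ppargc1b) dock on both receptor families and raise their output. Tfam carries the programme into the mitochondrion, where it packages mitochondrial DNA and takes part in its transcription. The heart switches to fatty acids as its main fuel in the weeks after birth, the period in which these mice were studied.

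The RNA of the vector's gene itself, Rbm24, had log2 signals of 14.58, 14.74 and 15.12 in AAV9-Rbm24 hearts, against 13.95, 13.63 and 13.57 in AAV9-GFP hearts, without overlap (2.14-fold, adjusted p = 0.0607 in limma). Array medians lay between 5.49 and 5.67. The largest of these belonged to AAV9-GFP replicate 2, a heart that also lay far from the rest in a principal component analysis (first component, 37.4% of the variance), at -64.3 where the other 5 hearts lay between -9.7 and 41.4. Of 65956 clusters, 159 were higher and 17 lower in AAV9-Rbm24 hearts at an adjusted p under 0.05, and these numbers lay between 0 and 90 higher and between 0 and 4 lower when 1 heart was left out.

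None of the 8 regulators passed the adjusted threshold, where 0.267% of all clusters did. Most of them had lower means in AAV9-Rbm24 hearts, namely 7 of 8, where 57.1% of all clusters did. At an unadjusted p under 0.05, 3 of 8 were lower (Ppargc1a, Ppara and Esrrg), where 4.33% of all clusters were, and 0 of 8 were higher, where 4.08% of all clusters were. Which regulators pass varied with the test: the methods' analysis of variance gave 2 (Esrrg and Rxra), the fit with the replicate block 2 (Ppargc1a and Ppara) and array weights 4. A 1.5-fold difference together with an unadjusted limma p under 0.05 was reached by no regulator, and by 1.78% of all clusters. With the p of the study's analysis of variance in place of limma's, again no regulator passed, where 664 clusters were higher and 251 lower. The signals of both groups did not overlap, with all AAV9-Rbm24 hearts lower, for 3 of 8 (Ppargc1a, Esrrg and Rxra), where the same held for 7.71% of all clusters. The median log2 fold change of the 8 was -0.18, that of all clusters was -0.027 and that of the 8084 genes whose mean log2 signal was at least 8 was 0.036. With 3 hearts against 3, an exact permutation test on a single gene cannot go below p = 0.1 (two-sided).

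**Figure D1:**
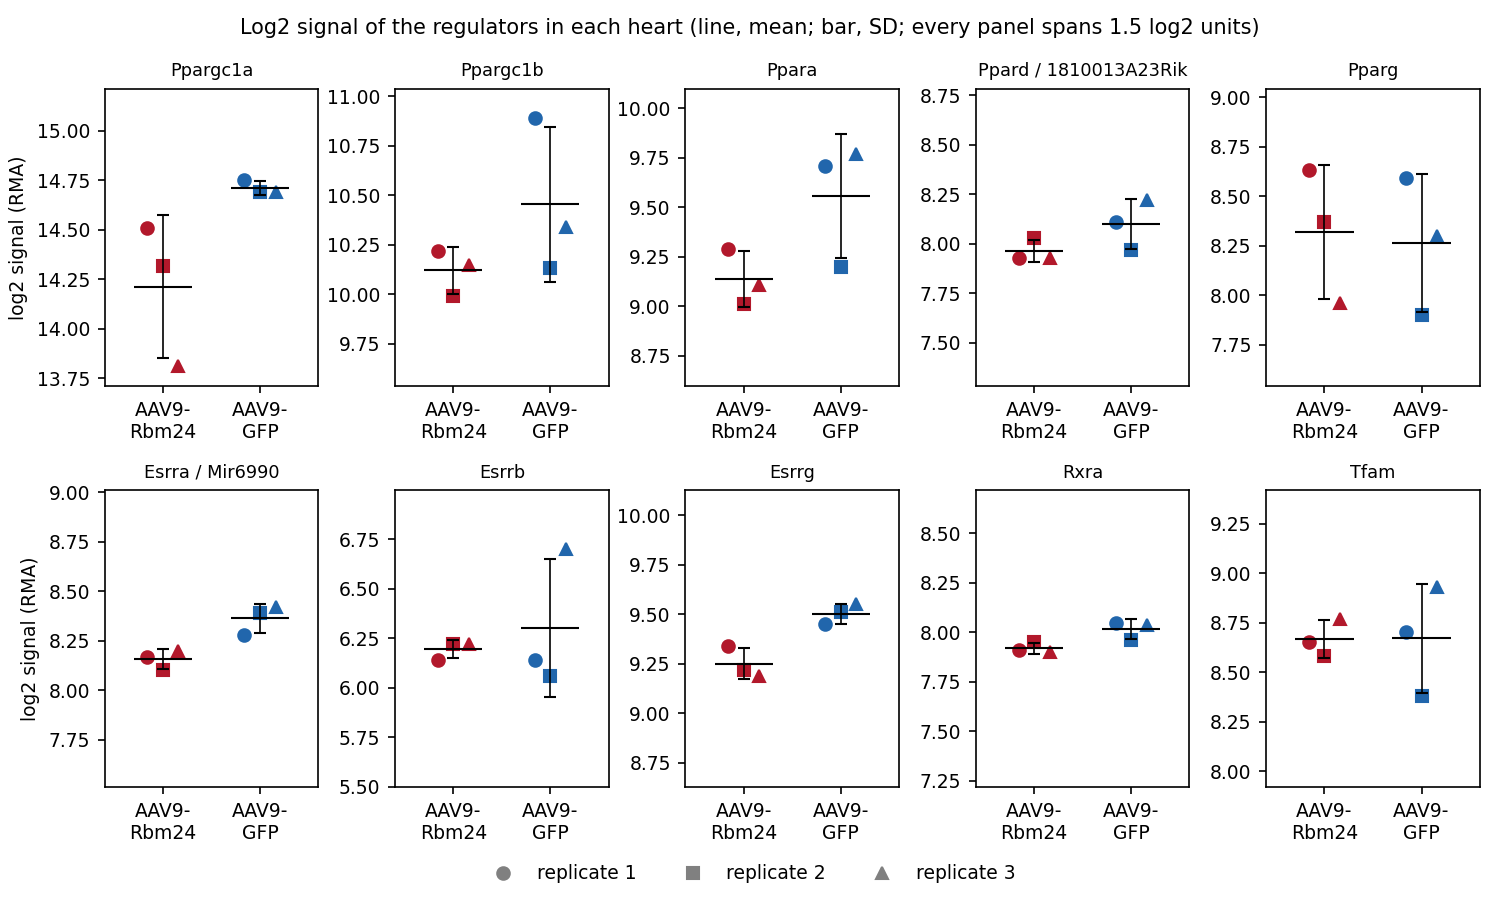
Log2 signal (vertical axis) of the regulators in each of the 6 hearts, with AAV9-Rbm24 hearts left of AAV9-GFP hearts. Points are hearts, horizontal lines are group means and error bars are SDs (n = 3). Ppargc1a and Esrrg show no overlap between the groups, whereas Pparg and Tfam overlap.

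Promoter sequences are shown for Ppargc1a and Ppara, the regulators with the largest mean differences. Each is the RefSeq window from 250 bases before to 50 bases after the start, on build GRCm38.p6, written 5′ to 3′ along the gene's own strand. Capitals mark matches to 1 of 6 motifs searched on both strands. The Ppargc1a window lies on the minus strand at chr5:51567676-51567975 and the Ppara window on the plus strand at chr15:85735526-85735825.
Ppargc1a promoter: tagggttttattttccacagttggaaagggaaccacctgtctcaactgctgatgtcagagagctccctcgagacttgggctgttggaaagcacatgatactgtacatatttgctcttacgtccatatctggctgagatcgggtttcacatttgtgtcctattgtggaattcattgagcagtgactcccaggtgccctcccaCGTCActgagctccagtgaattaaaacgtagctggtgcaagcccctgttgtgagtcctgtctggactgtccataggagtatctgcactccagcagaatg
Ppara promoter: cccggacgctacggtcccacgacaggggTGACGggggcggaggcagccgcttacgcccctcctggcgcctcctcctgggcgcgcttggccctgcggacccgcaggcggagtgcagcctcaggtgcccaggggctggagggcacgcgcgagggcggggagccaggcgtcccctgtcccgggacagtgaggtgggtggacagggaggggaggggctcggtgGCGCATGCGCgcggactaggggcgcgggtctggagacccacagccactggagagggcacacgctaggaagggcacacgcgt
The Ppargc1a window holds the letters of a cyclic AMP response half-site (TGACG, here read on the opposite strand as CGTCA) 49 bases before the start, a motif that 20.8% of 32851 RefSeq promoter windows hold. Signalling through CREB, the factor that binds such elements, is a textbook inducer of Ppargc1a. In the Ppara window the half-site begins 222 bases before the start, and a match to the NRF1 motif GCGCANGCGC, written GCGCATGCGC here, begins 31 bases before it. The NRF1 motif occurs in 4.6% of windows. Matches are a description of the letters and say nothing about binding.

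The other windows were searched in the same way. RefSeq windows were found for 9 of the 10 genes, 16 windows in all. None of the 16 held the ERR element TCAAGGTCA (0.423% of all windows), the PPAR-RXR type repeat AGGTCANAGGTCA (0.0396%) or the full cyclic AMP element TGACGTCA (1.79%). The first of these shares its AGGTCA letters with the repeat, and the full cyclic AMP element contains the half-site. The half-site was not confined to Ppargc1a and Ppara. It also began 158 and 117 bases before the start in an Esrrb window and 4 bases before the start in the Ppard window. Tfam had a match to CCGGAAG, the site of the ETS factor GABPA, beginning 47 bases before the start, which 8.86% of windows hold. Ppara was rich in G and C (74.7% of bases), and so was Tfam (70.3%), whereas Ppargc1a (48.7%) lay below the median of all windows (52.7%).

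Ppargc1a encodes PGC-1α, the inducible coactivator that raises mitochondrial output on fasting, exercise and cold. Its log2 signals were 14.51, 14.32 and 13.81 in AAV9-Rbm24 hearts, against 14.75, 14.69 and 14.69 in AAV9-GFP hearts. Every AAV9-Rbm24 heart lay below every AAV9-GFP heart. The AAV9-GFP hearts were nearly equal and the AAV9-Rbm24 hearts were spread, with replicate 3 the lowest. Means were 14.21 ± 0.36 in AAV9-Rbm24 hearts and 14.71 ± 0.03 in AAV9-GFP hearts (SD, n = 3 each), a log2 fold change of -0.49 (SE 0.17, 95% confidence interval -0.90 to -0.09), or a ratio of 0.71. The unadjusted p was 0.0227 and the adjusted p 0.474 in limma. Without AAV9-Rbm24 replicate 3 the log2 fold change was -0.29, and without AAV9-Rbm24 replicate 1 it was -0.64.

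Ppargc1b encodes PGC-1β, the related coactivator that serves mainly constitutive mitochondrial function. Its signals were 10.22, 9.99 and 10.15 in AAV9-Rbm24 hearts, against 10.89, 10.13 and 10.34 in AAV9-GFP hearts. The groups overlapped, since AAV9-GFP replicate 2 lay below 2 of the AAV9-Rbm24 hearts. The log2 fold change was -0.33 (SE 0.19, 95% confidence interval -0.78 to 0.12, adjusted p = 0.71 in limma). It came to -0.11 without AAV9-GFP replicate 1 and to -0.49 without AAV9-GFP replicate 2.

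Ppara, the main fatty acid receptor of heart and liver, had signals of 9.29, 9.01 and 9.11 in AAV9-Rbm24 hearts, against 9.71, 9.20 and 9.77 in AAV9-GFP hearts. AAV9-GFP replicate 2 lay below AAV9-Rbm24 replicate 1, so the groups overlapped, while the other 2 AAV9-GFP hearts stood above all AAV9-Rbm24 hearts. Means were 9.14 ± 0.14 in AAV9-Rbm24 hearts and 9.56 ± 0.31 in AAV9-GFP hearts (SD, n = 3 each). The log2 fold change was -0.42 (SE 0.17, 95% confidence interval -0.81 to -0.04), a ratio of 0.746, with an unadjusted p of 0.036 and an adjusted p of 0.541 in limma. Without AAV9-GFP replicate 2, the heart that stood apart, it was -0.60 with an unadjusted p of 0.00176 and an adjusted p of 0.229 in limma. It was weaker without AAV9-GFP replicate 1 (-0.35) or replicate 3 (-0.32), with unadjusted p of 0.112 and 0.118 in limma. Without AAV9-Rbm24 replicate 1, 2 or 3 it was -0.50, -0.36 and -0.41 in that order. The unadjusted p were then 0.0359, 0.109 and 0.0794 in limma.

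The other PPARs and their partner showed smaller differences. Pparg, the adipocyte receptor, had signals of 8.63, 8.37 and 7.96 in AAV9-Rbm24 hearts, against 8.59, 7.90 and 8.30 in AAV9-GFP hearts. The groups overlapped, and the log2 fold change of 0.06 (SE 0.22, adjusted p = 0.974 in limma) changed sign when AAV9-GFP replicate 2 or AAV9-Rbm24 replicate 1 was left out. Rxra, the retinoid X receptor that PPARs need to bind DNA, had signals of 7.91, 7.95 and 7.90 in AAV9-Rbm24 hearts, against 8.05, 7.96 and 8.04 in AAV9-GFP hearts. The groups did not overlap, but the highest AAV9-Rbm24 heart and the lowest AAV9-GFP heart were nearly equal. The log2 fold change of Rxra was -0.10 (SE 0.09, 95% confidence interval -0.31 to 0.11, adjusted p = 0.821 in limma). The cluster of Ppard and 1810013A23Rik had signals of 7.93, 8.03 and 7.93 in AAV9-Rbm24 hearts, against 8.11, 7.97 and 8.22 in AAV9-GFP hearts, with overlap and a log2 fold change of -0.14 (SE 0.11, adjusted p = 0.783 in limma).

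Among the ERRs, the group difference was clearest for Esrrg, a receptor of oxidative tissues such as heart and slow muscle. Esrrg signals were 9.34, 9.22 and 9.19 in AAV9-Rbm24 hearts, against 9.45, 9.51 and 9.55 in AAV9-GFP hearts. All AAV9-Rbm24 hearts were lower, and the hearts of each group lay close together. The log2 fold change was -0.25 (SE 0.10, 95% confidence interval -0.47 to -0.03), a ratio of 0.841, with an unadjusted p of 0.0334 and an adjusted p of 0.527 in limma. Leaving out any 1 heart moved it only between -0.30 and -0.22. The cluster of Esrra, a widely expressed regulator of mitochondrial genes, and Mir6990 gave 8.17, 8.10 and 8.20 in AAV9-Rbm24 hearts, against 8.28, 8.39 and 8.42 in AAV9-GFP hearts. These did not overlap either, with a log2 fold change of -0.20 (SE 0.10, 95% confidence interval -0.43 to 0.02, adjusted p = 0.633 in limma).

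Esrrb, known from pluripotent cells and the placenta, had signals of 6.14, 6.22 and 6.22 in AAV9-Rbm24 hearts, against 6.14, 6.06 and 6.70 in AAV9-GFP hearts. AAV9-GFP replicate 3 alone stood above the AAV9-Rbm24 hearts. Its log2 fold change of -0.11 (SE 0.17, adjusted p = 0.915 in limma) became 0.09 without that heart. Tfam had signals of 8.65, 8.58 and 8.77 in AAV9-Rbm24 hearts, against 8.70, 8.38 and 8.93 in AAV9-GFP hearts, and a log2 fold change of -0.003 (SE 0.15, 95% confidence interval -0.35 to 0.34, adjusted p = 0.998 in limma). The AAV9-Rbm24 hearts lay within the range of the AAV9-GFP hearts. The sign of Tfam turned under 6 of 17 alternatives.

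**Figure D2:**
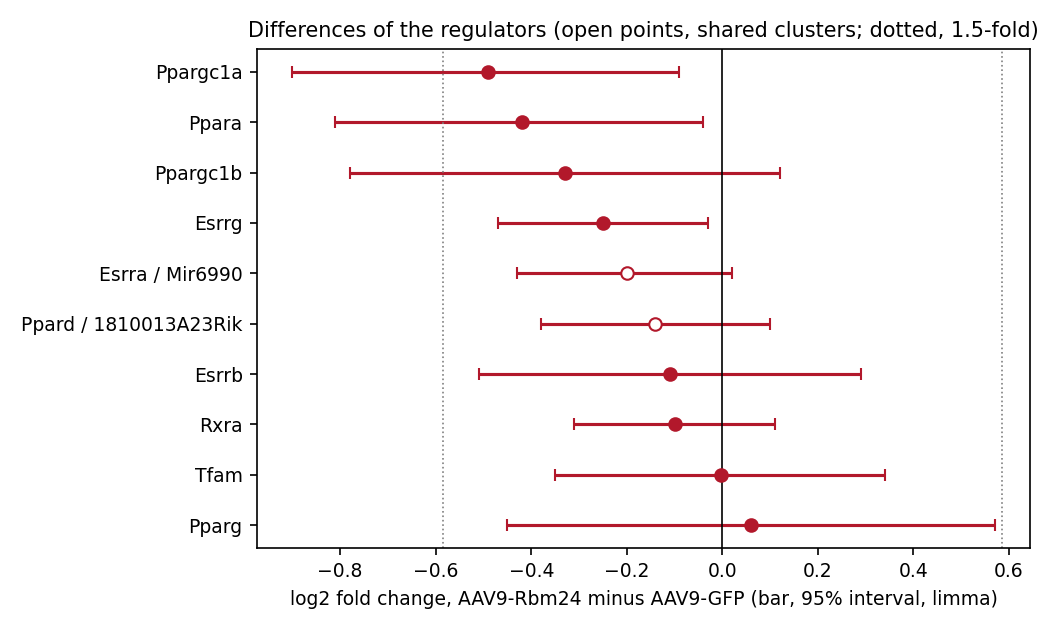
Log2 fold change of AAV9-Rbm24 over AAV9-GFP hearts (horizontal axis) for each regulator, with 95% confidence intervals from limma (n = 3 hearts per group). Only the intervals of Ppargc1a, Ppara and Esrrg lie wholly below 0, and no adjusted p was under 0.05.

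**Figure D3:**
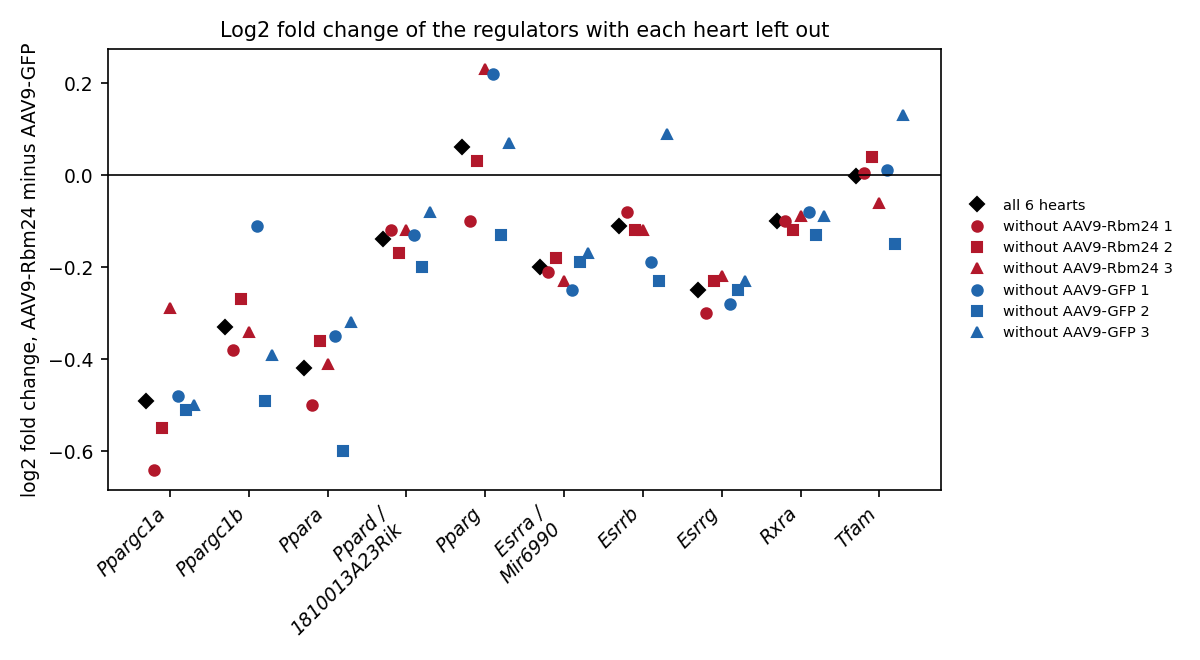
Log2 fold change of each regulator with all hearts and with each heart left out in turn. Ppargc1a ran from -0.64 to -0.29 and Ppara from -0.60 to -0.32, whereas Esrrg stayed between -0.30 and -0.22 and Pparg, Esrrb and Tfam crossed 0.

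Marker lists of the cell types of the ventricle were read as well. In bulk RNA the number of cells of a type and the RNA per cell cannot be told apart, and this holds for the markers too. Of 12 cardiomyocyte markers none passed the adjusted threshold, with a median log2 fold change of -0.03 and summed linear signals of 3875162 to 3947316 in AAV9-Rbm24 hearts against 3872348 to 4083301 in AAV9-GFP hearts. That sum is carried by Actc1, at the array maximum, and by Tnnt2 and Myh6 just below it, and signals there cannot show a difference. In 3 of the 12 (Myl3, Tnni3 and Ryr2) all AAV9-Rbm24 hearts lay below all AAV9-GFP hearts, where 7.71% of all clusters did. Their log2 fold changes were -0.18, -0.20 and -0.36. Of 12 macrophage markers 6 rose at the adjusted threshold (Ptprc, Adgre1, Mpeg1, C1qb, Lyz2 and C1qa), which 0.267% of all clusters passed in either direction. In 11 of 12 all AAV9-Rbm24 hearts were the higher ones. Over all clusters only the reverse, all AAV9-Rbm24 hearts lower, was counted (7.71%). Also 11 of 12 were higher at an unadjusted p under 0.05 in limma, where 4.08% of all clusters were. The exception was Cd163, which was lower without overlap (log2 fold change -0.42, adjusted p = 0.392 in limma). The summed signal of the 12 was 36698 to 87307 in AAV9-Rbm24 hearts, against 6377 to 11098 in AAV9-GFP hearts. Of 9 measured fibroblast markers 4 rose at the adjusted threshold (Lum, Dpt, Col1a2 and Col3a1). Means were higher for 7 and lower for 2, Tcf21 and Thy1 (log2 fold changes -0.03 and -0.05). The sums of the 9 were 159512 to 202366 in AAV9-Rbm24 hearts against 79598 to 90375 in AAV9-GFP hearts. Over all marker lists 10 genes were called, and 0 to 10 were with 1 heart left out, 0 of them without any single AAV9-GFP heart or without AAV9-Rbm24 replicate 2 and 3 without AAV9-Rbm24 replicate 1. The part of this shift in the values of the regulators was not tested. No marker was at 0, as these log2 signals have no zero.

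Partners of the regulators were then read from lists of the same circuit. In 3 of 38 measured other nuclear receptors all AAV9-Rbm24 hearts lay below all AAV9-GFP hearts, where 7.71% of all clusters did. At the adjusted threshold, which 0.267% of all clusters passed in either direction, 1 of the 38 rose and none fell. That 1 was Nr4a3, an orphan receptor and immediate early gene, with signals of 6.41, 6.60 and 6.90 in AAV9-Rbm24 hearts against 5.60, 5.68 and 5.50 in AAV9-GFP hearts. The AAV9-GFP values were near the array medians. Its log2 fold change was 1.04 (SE 0.14, adjusted p = 0.04 in limma), and with any 1 heart left out the adjusted p lay between 0.0676 and 0.166. The related Nr4a1 was higher without overlap at 7.94, 8.42 and 8.42 in AAV9-Rbm24 hearts against 7.40, 7.28 and 7.31 in AAV9-GFP hearts (log2 fold change 0.93, SE 0.15, adjusted p = 0.0688 in limma).

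The muscle-enriched retinoid X receptor Rxrg, which can stand in for Rxra as a partner of PPARs, had the lowest fold change of the receptors. Its signals were 9.94, 9.87 and 9.95 in AAV9-Rbm24 hearts, against 10.62, 10.24 and 10.77 in AAV9-GFP hearts, without overlap. The log2 fold change was -0.62 (SE 0.14, 95% confidence interval -0.96 to -0.29), a ratio of 0.649, with an unadjusted p of 0.00273 and an adjusted p of 0.209 in limma. Thrb, a thyroid hormone receptor, had 9.61, 9.65 and 9.37 in AAV9-Rbm24 hearts against 10.09, 9.95 and 10.04 in AAV9-GFP hearts (log2 fold change -0.48, SE 0.11, adjusted p = 0.214 in limma). Rxrg and Thrb thus differed by more than Rxra did in these means, though the difference between the genes was not tested.

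Of 18 coactivators and partners, 12 had lower means in AAV9-Rbm24 hearts and 6 higher, and none passed the adjusted threshold. Rxrg was among them. Klf15, a metabolic transcription factor that works with Ppara, had 8.20, 8.16 and 8.21 in AAV9-Rbm24 hearts against 8.37, 8.49 and 8.61 in AAV9-GFP hearts (log2 fold change -0.30, adjusted p = 0.455 in limma). Perm1, a muscle protein induced by PGC-1 and ERR, had 13.28, 13.06 and 12.80 in AAV9-Rbm24 hearts against 13.61, 13.15 and 13.67 in AAV9-GFP hearts, with overlap (log2 fold change -0.43, adjusted p = 0.569 in limma). The coactivator Ncoa2 was 0.19 lower on the log2 scale with no overlap (log2 fold change -0.19, adjusted p = 0.68 in limma). Rxrg, Klf15 and Ncoa2 were the 3 genes of this list in which all AAV9-Rbm24 hearts lay below all AAV9-GFP hearts, 3 of 18 where 7.71% of all clusters did.

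Inhibitors and upstream kinases gave no call at the adjusted threshold. Of 11 measured corepressors and inhibitors, 6 had higher and 5 lower means in AAV9-Rbm24 hearts, and the 4 with the smallest p, Hdac2, Hdac1, Ctbp1 and Nrip1, had log2 fold changes of -0.18, 0.24, -0.14 and 0.16 with adjusted p between 0.677 and 0.799 in limma. Of 13 energy-sensing kinases and deacetylases none passed. In 4 of 13 (Prkaa2, Prkab1 and Prkag1 of the AMP-activated kinase, and the p38 kinase Mapk14) all AAV9-Rbm24 hearts lay below all AAV9-GFP hearts, where 7.71% of all clusters did, with log2 fold changes between -0.22 and -0.18. The 4 with the smallest p were Fnip2, a partner of the AMP-activated kinase, the deacetylases Sirt1 and Sirt3 and the kinase subunit Prkab1. Their log2 fold changes were 0.36, 0.26, -0.24 and -0.21 in that order, and Fnip2 alone had an unadjusted p under 0.05 (0.0263, adjusted p = 0.497 in limma).

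The ERR and PGC-1 target genes of the mitochondrion are mostly enzymes of the citric acid cycle and subunits of the respiratory chain and ATP synthase. The list also holds the ADP/ATP carriers Slc25a4 and Slc25a5, Got2, Ckmt2, Sod2, the mitofusins and 1 gene outside the mitochondrion, the secreted growth factor Vegfa. Of 34 listed, 32 were measured, all bright (mean log2 signal of 9.94 or more), and 31 of 32 had lower means in AAV9-Rbm24 hearts, where 41.8% of the 8084 genes with a mean of at least 8 did. None passed the adjusted threshold, and 4 of 32 were lower at an unadjusted p under 0.05, where 5.07% of the 8084 genes were. In 13 of 32 (40.6%) all AAV9-Rbm24 hearts lay below all AAV9-GFP hearts, where 8.3% of the 8084 genes did. The median log2 fold change was -0.18 and the lowest -0.42. With 1 heart left out the median lay between -0.22 and -0.14. With both hearts numbered 3 left out, a setting chosen after seeing the data, it was -0.11. All these genes were read from the same 6 hearts and are not independent of each other.

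Mfn2, the mitofusin that joins mitochondrial membranes, had signals of 14.95, 14.73 and 14.88 in AAV9-Rbm24 hearts, against 15.31, 15.12 and 15.39 in AAV9-GFP hearts. It had the lowest fold change of the list (-0.42, SE 0.11, 95% confidence interval -0.69 to -0.16, adjusted p = 0.30 in limma). Uqcrfs1, the iron-sulfur protein of complex III, had 11.17, 11.04 and 10.95 in AAV9-Rbm24 hearts against 11.42, 11.22 and 11.54 in AAV9-GFP hearts (log2 fold change -0.34, adjusted p = 0.471 in limma). Both genes kept the groups apart. Idh3a, a citric acid cycle dehydrogenase, had 16.11, 15.93 and 15.93 in AAV9-Rbm24 hearts against 16.25, 16.24 and 16.35 in AAV9-GFP hearts (log2 fold change -0.29, adjusted p = 0.471 in limma). Ndufs1, the largest subunit of complex I, had 15.47, 15.38 and 15.20 in AAV9-Rbm24 hearts against 15.72, 15.54 and 15.60 in AAV9-GFP hearts (log2 fold change -0.27, adjusted p = 0.563 in limma). At the other end of the list, Ckmt2, the mitochondrial creatine kinase, was the 1 gene with a higher mean (log2 fold change 0.02, adjusted p = 0.981 in limma).

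**Figure D4:**
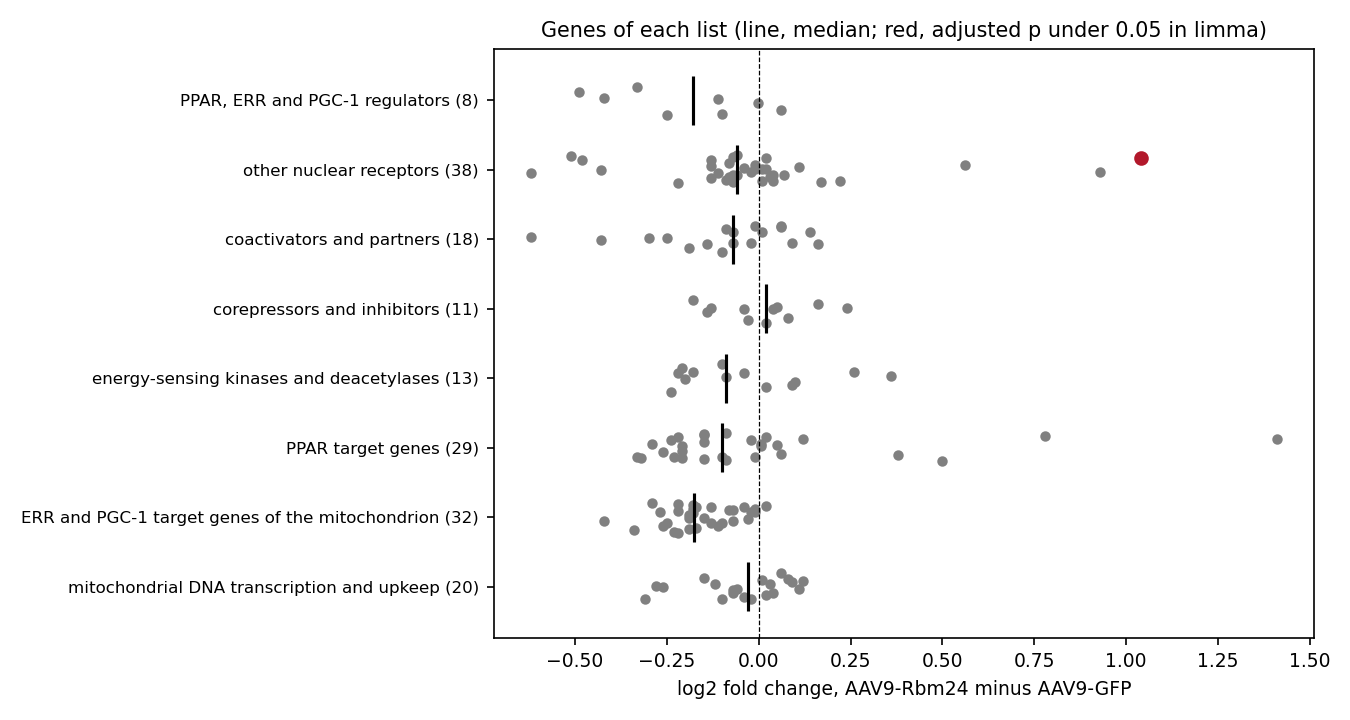
Log2 fold change of AAV9-Rbm24 over AAV9-GFP hearts (horizontal axis) for each measured gene of the regulators and of the 7 lists of the circuit. Each point is a gene and the bar is the median of its list. The ERR and PGC-1 target genes lie nearly all below 0 (31 of 32), whereas PPAR targets spread from -0.33 to 1.41.

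The PPAR target genes were more spread. Several genes of fatty acid oxidation had log2 fold changes below the median of the ERR targets (-0.18). Among these were Acaa2 (-0.33), Cpt2 (-0.29), Acadvl (-0.24) and Cpt1b (-0.21), with adjusted p between 0.778 and 0.835 in limma. Others, such as Acadl (-0.02) and Cpt1a (0.005), were near 0. Of 34 listed, 29 were measured, 19 with lower and 10 with higher means in AAV9-Rbm24 hearts, a median log2 fold change of -0.10 and none past the adjusted threshold. That median has no settled sign, since it was -0.28 without AAV9-Rbm24 replicate 1, -0.26 without AAV9-GFP replicate 3, -0.23 without AAV9-Rbm24 replicate 2, -0.05 without AAV9-GFP replicate 2, near 0 without AAV9-GFP replicate 1 and 0.12 without AAV9-Rbm24 replicate 3. In 21 of 29 (72.4%), replicate 3 had the lowest signal in both groups, where this held for 14.8% of 30738 genes and 9.39% of the 8084 brighter ones. Replicate 3 differed from the mean of replicates 1 and 2 by a median of -0.56 in AAV9-Rbm24 hearts and -0.47 in AAV9-GFP hearts over the PPAR targets. Over all genes these medians were -0.01 in AAV9-Rbm24 hearts and -0.02 in AAV9-GFP hearts. This pattern was noticed in the data, and the labels do not say what hearts of the same number share.

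The regulators did not show it. Of the 8, none was lowest in replicate 3 of both groups, and Ppara, a receptor for these targets, was highest in AAV9-GFP replicate 3 (9.77). Ppargc1a, Pparg, Esrrg and Rxra were lowest in replicate 3 of the AAV9-Rbm24 hearts but not of the AAV9-GFP hearts. For Ppargc1a, AAV9-GFP replicates 2 and 3 were both 14.69 after rounding, so these values barely separate them. Replicate 2 was the lowest in both groups for 3 of 8 (Ppara, Ppargc1b and Tfam), as for 29.3% of the 8084 brighter genes. Among the ERR targets, replicate 3 was the lowest in both groups for 3 of 32 (9.38%).

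Plin2, which coats lipid droplets, was the PPAR target with the smallest p. It had 12.42, 12.58 and 12.64 in AAV9-Rbm24 hearts against 12.16, 12.21 and 11.77 in AAV9-GFP hearts, without overlap (log2 fold change 0.50, SE 0.14, adjusted p = 0.324 in limma). Angptl4, a secreted inhibitor of lipoprotein lipase, had 9.06, 9.20 and 8.26 in AAV9-Rbm24 hearts against 7.78, 8.23 and 6.29 in AAV9-GFP hearts. Replicate 3 was the lowest of each group, and the groups just failed to overlap. Its log2 fold change of 1.41 (SE 0.48, 95% confidence interval 0.30 to 2.52) was the highest of the list, with an adjusted p of 0.45 in limma. The fatty acid oxidation genes Eci1 and Ehhadh had log2 fold changes of -0.32 and -0.22, with adjusted p of 0.679 and 0.691 in limma.

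Further targets, chosen after their values were seen, show the size of the spread between hearts. Pdk4, the kinase that shuts glucose out of the mitochondrion by inhibiting pyruvate dehydrogenase, had 18.53, 18.49 and 17.18 in AAV9-Rbm24 hearts, against 18.14, 18.13 and 15.60 in AAV9-GFP hearts. Acot1, an acyl-CoA thioesterase, had 10.76, 10.51 and 8.84 in AAV9-Rbm24 hearts, against 11.04, 10.68 and 8.86 in AAV9-GFP hearts. Its mitochondrial relative Acot2 had 17.27, 17.18 and 15.35 in AAV9-Rbm24 hearts, against 17.26, 17.15 and 15.21 in AAV9-GFP hearts. In all 3 genes, replicate 3 lay more than 1 log2 unit below both other hearts of its own group. The group differences were small beside this for Acot1 (log2 fold change -0.15, SE 0.66, adjusted p = 0.976 in limma), and for Pdk4 the log2 fold change was 0.78 (SE 0.69, adjusted p = 0.815 in limma).

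**Figure D5:**
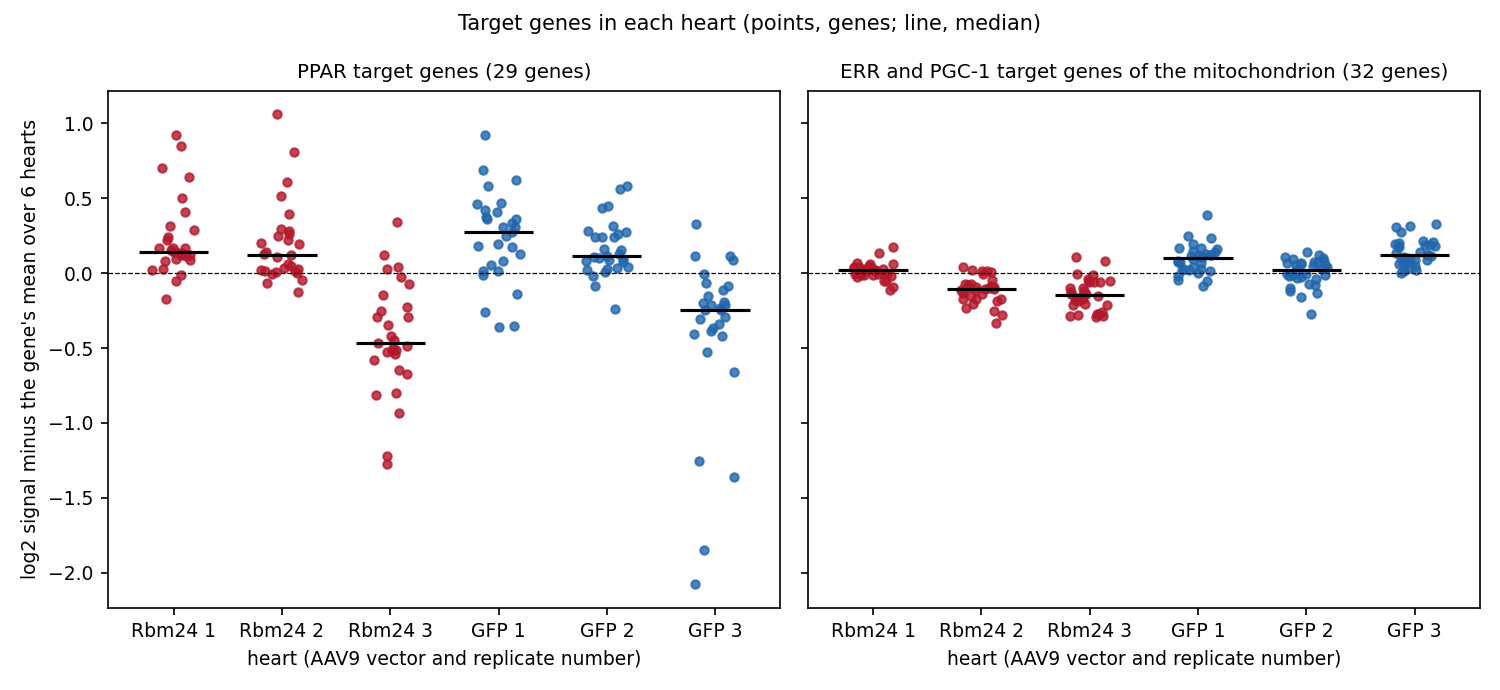
Signal of each measured gene of the PPAR target and ERR target lists in each heart, as the difference from that gene's mean over the 6 hearts (log2 units, vertical axis), with AAV9-Rbm24 hearts left of AAV9-GFP hearts. PPAR targets averaged -0.43 in AAV9-Rbm24 replicate 3 and -0.40 in AAV9-GFP replicate 3, whereas ERR targets averaged -0.14 in AAV9-Rbm24 replicate 3 and 0.14 in AAV9-GFP replicate 3.

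Around Tfam, 20 genes of mitochondrial DNA transcription and upkeep were measured of 21 listed, among them its partners at the mitochondrial DNA and the nuclear factors Nrf1, Gabpa, Gabpb1 and Nfe2l2, which act upstream. None passed the adjusted threshold, 11 had lower and 9 higher means in AAV9-Rbm24 hearts, and the median log2 fold change was -0.03. The 4 with the smallest p were Mterf2, Tfb1m, Twnk (the mitochondrial helicase) and Polrmt (the mitochondrial RNA polymerase), with log2 fold changes of -0.28, -0.31, -0.26 and -0.15 and adjusted p between 0.662 and 0.745 in limma.

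Genes with the most similar profile over the 6 hearts were sought for the 3 regulators that varied most, among 11366 genes whose mean log2 signal was at least 6. Likeness was the root mean square difference of the log2 profiles after each was centred on its own mean. Ppargc1a was closest to Ivd (0.0365 log2 units), an enzyme of leucine breakdown, then to Mmut (0.0708), the methylmalonyl-CoA mutase, and Pttg1 (0.0745). Ppara was closest to Tarsl2 (0.0406), Siva1 (0.0519) and Uqcc1 (0.0557), an assembly factor of complex III. Ppargc1b was closest to Micall1 (0.0864), Slc4a4 (0.0971), a bicarbonate cotransporter, and Nt5dc3 (0.105). These are descriptions over 6 hearts.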

How the data were processed

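Left ventricular RNA of 6 hearts was measured on 1 array each. The deposited values are log2 signals, with 1 value per array for each transcript cluster. RMA and Affymetrix Expression Console are named in the submitters' notes on processing. Their versions, the annotation library and the build were not given in the sources used here. RMA signals carry no molecule counts, and precision is limited by the small number of arrays. After 6732 control rows were left out, 65956 clusters were tested without a signal filter. The platform annotation gave the symbols, which were updated with RefSeq (31292 clusters with 1 symbol, 1522 with several and not named, 33142 with none). Genes with several clusters took the brightest.

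AAV9-Rbm24 hearts were set against AAV9-GFP hearts in limma 3.58.1 (R 4.3.3) by lmFit and eBayes, with Benjamini-Hochberg adjustment over all clusters. The named genes are all regulators, the 4 smallest p of each list and called list genes. Other list genes and markers named in the text, such as Pdk4, Acot1, Acot2, Ckmt2 and Adipoq, were chosen after their values were seen. Members and lists were chosen with earlier results of these data known. The procedure was tested on simulated data. Alternatives were other signal minimums, variance settings, normalizations, array weights, the methods' analysis of variance, the replicate block and left-out hearts.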

Additional observations from a re-analysis of the deposited data

How the results depend on the processing

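No regulator passed the adjusted threshold under any alternative tried, and the numbers with lower means ranged from 5 to 8 of 8. The number lower at an unadjusted p under 0.05 (3) was 1 with array median centring, 4 with array weights (Ppargc1b added), 2 with the methods' analysis of variance (Esrrg and Rxra) and 1 to 3 with 1 heart left out. With both hearts numbered 3 left out, a setting chosen after seeing the data, it was 0, and the log2 fold changes of Ppargc1a and Ppara were -0.30 and -0.31. At 1.5-fold with an unadjusted p under 0.05 the number was 0 to 1 with 1 heart left out, 1 without AAV9-GFP replicate 2 (Ppara) or AAV9-Rbm24 replicate 1 (Ppargc1a). Directions turned for Pparg (-0.13 to 0.23 with 1 heart left out, -0.003 with array weights, -0.13 without AAV9-GFP replicate 2, -0.10 without AAV9-Rbm24 replicate 1), Esrrb (-0.23 to 0.09 with 1 heart left out, 0.09 without AAV9-GFP replicate 3, 0.08 without both hearts numbered 3) and Tfam (-0.15 to 0.13 with 1 heart left out, 0.02 with median centring, 0.01 and 0.13 without AAV9-GFP replicates 1 and 3, 0.005 and 0.04 without AAV9-Rbm24 replicates 1 and 2, 0.07 without both hearts numbered 3). The cause was not tested.

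Of 159 list genes, 1 was called (Nr4a3), where 0.267% of all clusters were. The count was 2 at a mean log2 signal of at least 6, 2 with 1-symbol clusters only and 2 with array weights. It was 0 at a mean of at least 8, with renewed quantile normalization, the methods' analysis of variance or both hearts numbered 3 left out, and 0 to 0 with any 1 heart left out. The adjusted p of Nr4a3 ranged from 0.0186 to 0.39 in limma and in that analysis.

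With the replicate number as a block the count of called list genes was 0 (Nr4a3 adjusted p = 0.0858 in limma), and no regulator was called. At an unadjusted p under 0.05 the block left 2 regulators lower (Ppargc1a and Ppara), with Esrrg at 0.0616 in limma. Same-numbered hearts deviated together with correlations of 0.027, 0.096 and 0.152. For replicates 2 and 3 the same-numbered heart was the best match. AAV9-Rbm24 replicate 1 matched AAV9-GFP replicate 2 (0.033) about as well as AAV9-GFP replicate 1 (0.027). The labels do not name pairs, and the main fit took none. Under the block Angptl4 had an adjusted p of 0.0898 and Pdk4 of 0.433 in limma, and called clusters over the whole array numbered 76 higher and 7 lower. The SE of Angptl4 was 0.20 with the block and 0.48 without it, and that of Pdk4 was 0.25 and 0.69.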

Other observations

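Other cell type markers stayed below the adjusted threshold. Of 8 measured endothelial markers none passed (median log2 fold change 0.01), with summed linear signals of 52182 to 53954 in AAV9-Rbm24 hearts and 51751 to 61032 in AAV9-GFP hearts. Of 7 measured adipocyte genes that Pparg is known to drive in fat, none passed (median -0.02). Means were higher for 3 and lower for 4, with log2 fold changes from -0.20 to 0.25. Their summed linear signals were 24204 to 55332 in AAV9-Rbm24 hearts and 28786 to 38957 in AAV9-GFP hearts. Adipoq averaged 4.21 in AAV9-Rbm24 hearts and 4.25 in AAV9-GFP hearts, below the array medians in both groups. The sums show that its low level does not stand for the whole list. Of 6 listed erythroid markers 2 were measured, with log2 fold changes of -0.12 and -0.05.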
